A study of Medicago sativa with 9 samples.

Results

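The comparison of 48 h with 12 h of selenite used 6 of the 9 leaf libraries of alfalfa (Medicago sativa), namely Se_48h1, Se_48h2 and Se_48h3 against Se_12h1, Se_12h2 and Se_12h3. The series measured polyadenylated RNA of whole leaves by paired-end sequencing under 100 mg per kg of selenium(IV), the selenite form, with 3 libraries at each of 0, 12 and 48 h. The members were taken from the library titles alone, but the comparison itself was chosen with earlier results of these data known. The remaining 3 libraries, of 0 h, entered the estimate of spread and are quoted where they help to place a level. The labels give no cultivar, plant age, light regime, sampling hour or medium, and leave unsaid whether replicates are different plants, so the p-values measure the spread between libraries, which may be technical. Each of the 6 libraries carried the treatment, and no untreated library of 12 h or 48 h is part of the series. The samplings lay 36 h apart, which is not a whole number of days, so the length of treatment and the time of day cannot be told apart in any difference below.

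Alfalfa is an autotetraploid legume, so each gene is present in near-identical copies on the homologous chromosomes. Selenate and selenite are chemical relatives of sulfate and phosphate, and plants take selenium up through transporters of those anions or of water and silicic acid and build it into amino acids through the sulfur pathway. Leaves also run a circadian clock, a loop of morning, daytime and evening regulators that repress one another and set the daily rhythm of photosynthesis, starch use, hormone and defence genes.

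Libraries of 48 h held 41236144 to 44570008 counts and those of 12 h held 46007916 to 56137145 counts, over 164632 genes. Copies with one description on one numbered chromosome were summed, and levels below are CPM (counts relative to library size) of such summed copies, scaled by the trimmed mean of M-values (TMM). They are not divided by gene length, so levels are compared between libraries and never between genes. A floor of 3 counts corresponded to 0.0729 to 0.0887 CPM at 48 h and to 0.0427 to 0.0506 CPM at 12 h. The leaf label held, since the light-harvesting antenna proteins alone summed to at least 85166 CPM in each 48 h library and at least 17797 CPM in each 12 h library. Of 41 summed groups with names of root nodule or seed proteins, 26, leghemoglobin, nodulin-25 and legumin B among them, had no count in any of the 6 libraries. The 41 together summed to 13.9 to 144 CPM at 48 h and 69.0 to 94.7 CPM at 12 h, and early nodulin-20 on chromosome 1 was called lower, with 0.276, 0.680 and 0 CPM at 48 h, against 21.1, 19.3 and 26.6 CPM at 12 h (−6.15 ± 1.10, or −7.36 without 48 h replicate 2, or −5.54 without 48 h replicate 3). In whole leaves, fewer cells of a type and less RNA per cell cannot be told apart.

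Reads were spread over the chromosome copies alike in the 3 libraries of 12 h and in 48 h replicates 1 and 3, but not in other pairs. In 2724 summed groups with 4 copies and at least 200 counts, a median of 10.6% of the reads lay on other copies when 48 h replicates 1 and 3 were compared. Replicate 2 of 48 h differed from replicates 1 and 3 by 23.6% and 22.8%, which is as much as the 22.1% to 23.9% between any 48 h library and any 12 h library. Pairs of 12 h libraries differed by 9.34% to 9.61%. Whether libraries of like copy usage come from one plant is not stated. With such libraries summed, which leaves 1 sample of 12 h and 2 of 48 h, 0 single genes and 1 summed group passed the edgeR test, while 4458 genes and 2132 groups had an unadjusted p under 0.05. Where leaving out 1 library of 48 h or 12 h moved a gene's difference by over 1.5 times, the value without that library follows the difference.

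**Figure D1:**
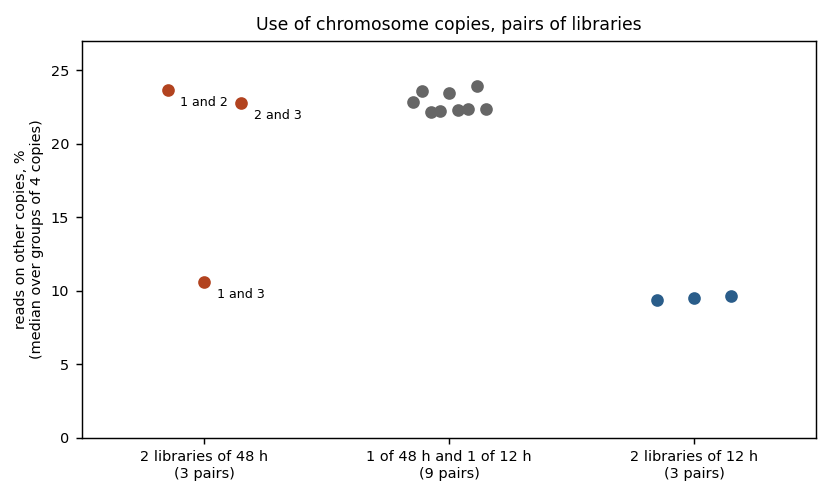
Share of reads lying on other chromosome copies between 2 libraries, in percent (median over 2724 summed groups with 4 copies), for each pair of 48 h libraries, each pair of a 48 h and a 12 h library, and each pair of 12 h libraries. Points are single pairs, and numbers beside the 48 h points are replicates. Among pairs with a 48 h library, that of replicates 1 and 3, at 10.6%, lies nearest to the pairs of 12 h libraries, which are at 9.34% to 9.61%.

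The 2 times differed in many genes. With edgeR's quasi-likelihood F-test and a Benjamini-Hochberg adjusted p under 0.05, 5378 of 50878 single genes changed (10.6%), of which 3543 were higher at 48 h (6.96%) and 1835 lower (3.61%). Summing the copies brought the share to 3334 of 13838 groups (24.1%), with 1857 higher (13.4%) and 1477 lower (10.7%). These shares are the background for every count of a gene list below, and such counts refer to summed groups. Of the called groups, 913 were at least 4-fold higher and 563 at least 4-fold lower at 48 h, and 253 and 151 passed 16-fold. The 3 libraries of each time had ranges that overlapped in 47 of the higher and 3 of the lower groups. The median log2 difference of all groups was −0.05. It moved to −0.59 when libraries were scaled by their totals alone, since TMM factors were 0.820 to 0.923 at 48 h and 1.22 to 1.29 at 12 h. With that scaling 1171 groups were called higher and 3867 lower (2399 and 4237 single genes), and limma on log2(FPKM + 1) called 1250 higher and 4405 lower (3733 and 9112 genes). Directions below are therefore relative to the bulk of the genes, and small differences in either direction depend on the scaling. Leaving out 12 h replicate 1, 12 h replicate 2 or 48 h replicate 1 brought the called groups to 1908, 1947 and 1915, and the called genes to 1883, 1756 and 2454. Without 12 h replicate 3 or 48 h replicate 3, 2711 and 2843 genes were called. Without 48 h replicate 2, 14.6% of all groups were higher and 13.5% lower. The counts for the lists that led the comparison were then 16 antenna groups higher, 6 morning clock groups higher, 5 evening clock groups lower, 6 sulfate transporters higher, 19 phenylpropanoid groups higher and 148 cytosolic ribosomal protein groups lower.

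Among 9953 groups with 2 or more tested copies, 69 held copies called in opposite directions. Only groups with 2 or more called copies could show this, and 10.6% of single genes were called. The low count therefore does not show that copies agreed. Summing raised what could be called, as 1022 of 2693 called groups held no copy that was called by itself. The reverse also occurred, since 730 of 7260 groups that were not called held a called copy. The common biological coefficient of variation was 0.843 for single genes and 0.501 for summed groups.

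**Figure D2:**
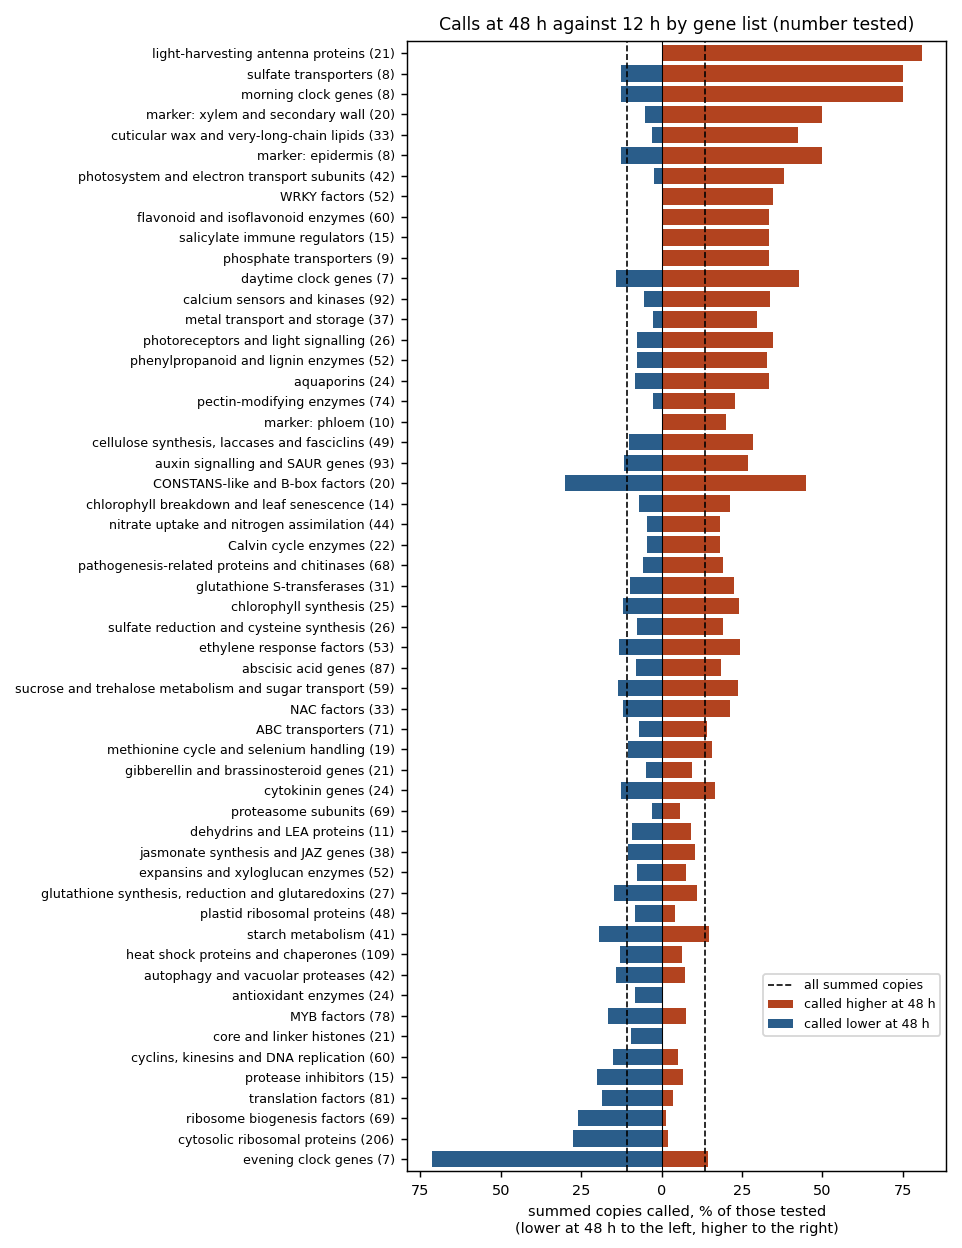
Share of summed groups called higher (right) and lower (left) at 48 h against 12 h in each gene list with 7 or more tested groups, the number tested in parentheses, ordered by the difference of both shares. Dashed lines mark the share over all 13838 groups, 13.4% higher and 10.7% lower. Antenna proteins, sulfate transporters and morning clock genes stand at the top, and evening clock genes, cytosolic ribosomal proteins and ribosome biogenesis factors at the bottom.

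Morning clock genes were higher at 48 h and evening clock genes lower. Of 8 morning genes tested, 6 were higher at 48 h and 1 lower, and of 7 evening genes 1 (0 without 48 h replicate 1) was higher and 5 were lower, against the background of 13.4% and 10.7%. The median log2 difference was 6.31 for the morning and −4.57 for the evening genes. Summed over the morning list, levels were 3152, 3844 and 3041 CPM at 48 h, against 116, 117 and 66.3 CPM at 12 h. Over the evening list they were 36.01, 27.98 and 38.5 CPM at 48 h, against 264, 256 and 189 CPM at 12 h. Each gene in this account that is said to be higher or lower also kept an adjusted p under 0.05 when any 1 library of 48 h or 12 h was left out, unless the highest adjusted p of those fits is given beside it. Where leaving out 1 library moved a list's count by over 1.5 times, the lowest or highest count and the library follow in parentheses. Values in parentheses after levels are log2 differences, 48 h minus 12 h, ± SE.

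LHY (late elongated hypocotyl, MS.gene22755, chromosome copy 7.3, bases 320924 to 331166 for the copy with most reads, positions as in the deposited table, whose genome build is not given in the sources used here) encodes the MYB repressor that opens the daily cycle. Its 4 copies summed to 2229, 2912 and 2163 CPM at 48 h, against 1.23, 1.64 and 2.65 CPM at 12 h. Both ranges were far apart and all 4 copies were called by themselves, with a log2 difference of 10.37 ± 0.42 (adjusted p = 2.10e-05). The level was 607, 622 and 600.2 CPM at 0 h, between the other two times. The coactivators LNK1 and LNK3, which work with REVEILLE proteins to switch on afternoon genes in Arabidopsis, moved with it. LNK3 had 284, 269 and 291 CPM at 48 h, against 0.894, 0.819 and 0.171 CPM at 12 h (8.81 ± 0.67), and LNK1 on chromosome 2 had 175, 133 and 154 CPM at 48 h, against 1.05, 0.819 and 0.612 CPM at 12 h (7.54 ± 0.37). The 48 h libraries lay close together in both genes, and every 12 h library was near or below 1 CPM. REVEILLE 8, an activator of evening genes, had 240.0, 302 and 202 CPM at 48 h, against 2.02, 2.77 and 2.42 CPM at 12 h (6.69 ± 0.29). REVEILLE 7 was also higher (2.65 ± 0.39). REVEILLE 1, a relative that links the clock to auxin in Arabidopsis, went the other way, with 5.27, 4.11 and 6.51 CPM at 48 h, against 73.1, 73.96 and 32.1 CPM at 12 h (−3.49 ± 0.36). Only REVEILLE 5 of this list did not pass the test (−0.41 ± 0.22).

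**Figure D3:**
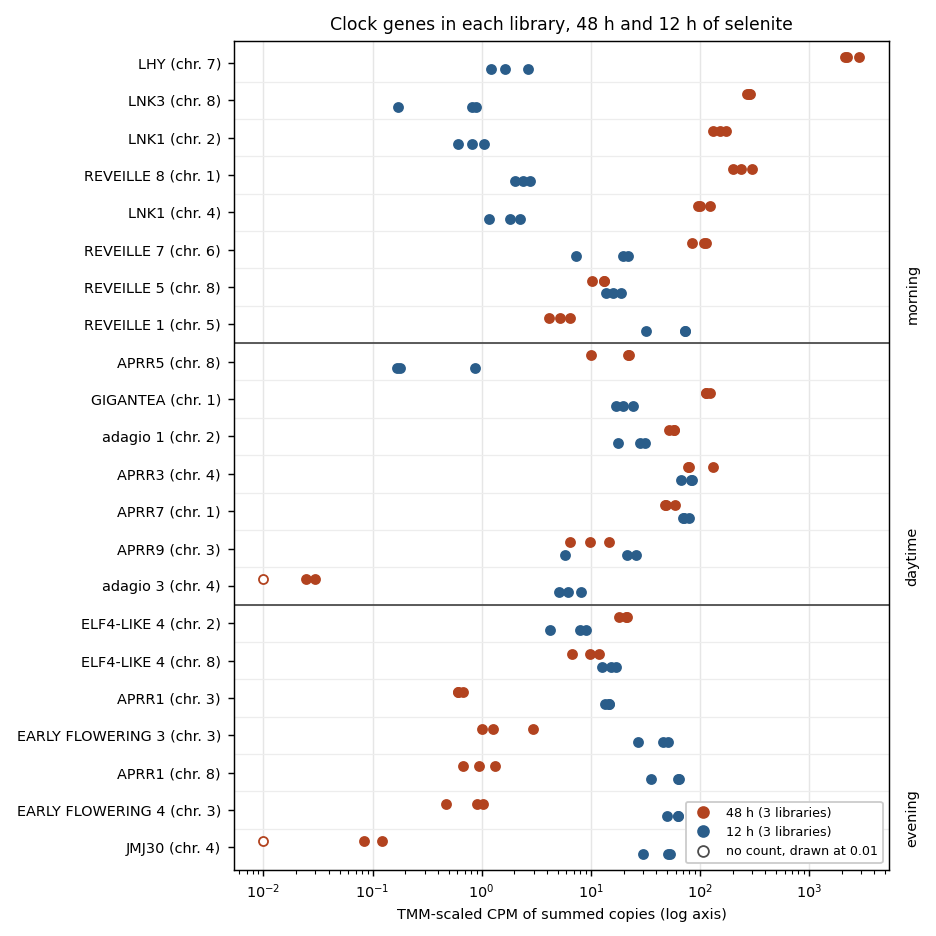
Level of each tested clock gene in the 3 libraries of 48 h (red, upper) and the 3 of 12 h (blue, lower), in TMM-scaled CPM of summed copies on a log axis, grouped into morning, daytime and evening genes. Open circles are libraries with no count, drawn at 0.01. LHY, LNK and REVEILLE 7 and 8 lie to the right at 48 h, and EARLY FLOWERING 3 and 4, both APRR1 groups and JMJ30 to the left.

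The evening genes mirrored this. JMJ30 (MS.gene95023, chromosome copy 4.4, bases 40112041 to 40117659), a histone demethylase that peaks at dusk in Arabidopsis, had 0.0827, 0 and 0.122 CPM at 48 h, against 53.5, 50.97 and 30.4 CPM at 12 h, and all 4 copies were called lower (−9.26 ± 1.11, or −9.96 without 48 h replicate 3, adjusted p = 0.00088). EARLY FLOWERING 4, a subunit of the evening complex, had 1.02, 0.473 and 0.899 CPM at 48 h, against 62.8, 49.8 and 63.1 CPM at 12 h (−6.19 ± 0.38). Its partner EARLY FLOWERING 3 had 1.27, 1.01 and 2.94 CPM at 48 h, against 45.8, 51.4 and 27.3 CPM at 12 h (−4.57 ± 0.62, or −5.19 without 48 h replicate 3). At 48 h both complex members were near the level of 1 CPM in most libraries, with replicate 3 the highest for EARLY FLOWERING 3. APRR1, also known as TOC1, the evening pseudo-response regulator that represses LHY, had 1.32, 0.947 and 0.681 CPM at 48 h, against 65.2, 63.8 and 35.7 CPM at 12 h on chromosome 8 (−5.80 ± 0.58). The APRR1 group on chromosome 3 was lower as well (−4.50 ± 0.47). ELF4-LIKE 4 on chromosome 2 was the 1 evening gene called higher (1.52 ± 0.36), and its adjusted p reached 0.056 when 1 library was left out. The ELF4-LIKE 4 group on chromosome 8 did not pass the test (−0.65 ± 0.27).

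Daytime regulators did not move as one. Of 7 tested, 3 were higher and 1 lower, with a median of 0.30, or −0.25 when libraries were scaled by totals alone. APRR5, a pseudo-response regulator of the afternoon, had 22.1, 10.03 and 22.4 CPM at 48 h, against 0.169, 0.180 and 0.867 CPM at 12 h (5.46 ± 0.74, or 6.70 without 12 h replicate 3). GIGANTEA, which stabilises the blue-light F-box protein ZEITLUPE in Arabidopsis, had 115, 114 and 123 CPM at 48 h, against 24.2, 19.9 and 16.9 CPM at 12 h (2.52 ± 0.26). Its ranges were well apart. ADAGIO 1, the ZEITLUPE gene, had 52.8, 58.4 and 58.5 CPM at 48 h, against 31.3, 28.2 and 17.8 CPM at 12 h (1.13 ± 0.26). ADAGIO 3, its relative known as FKF1 in photoperiodic flowering, had 0, 0.0296 and 0.0243 CPM at 48 h, against 5.08, 6.24 and 8.11 CPM at 12 h (−8.29 ± 0.89). With 2 counts in all at 48 h, the ratio of 12 h to 48 h was 365, with an exact binomial 95% interval from 101 to 3018 that covers counting error only. APRR3, APRR7 and APRR9 did not pass the test, with log2 differences of 0.30 ± 0.36, −0.50 ± 0.23 and −0.78 ± 0.64.

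Transcription factors that read light and day length split into a higher and a lower set. Of 20 CONSTANS-like and B-box zinc finger factors, 9 were higher and 6 lower at 48 h. B-box 32 had 76.2, 66.1 and 86.8 CPM at 48 h, against 0.101, 0 and 0.256 CPM at 12 h (9.25 ± 0.88, or 10.51 without 12 h replicate 3). CONSTANS-LIKE 4 on chromosome 2 had 93.2, 137 and 79.6 CPM at 48 h, against 0.422, 0.655 and 0.313 CPM at 12 h (7.80 ± 0.50). In both, each 12 h library was below 1 CPM. B-box 24, which restrains light responses in Arabidopsis, was higher on chromosome 2 (5.98 ± 0.64) and on chromosome 4 (2.84 ± 0.37). The lower set was led by CONSTANS-LIKE 7 on chromosome 5, with no count in any 48 h library and 9.78, 9.42 and 2.84 CPM at 12 h. Against a floor of 3 counts per library it was at least 90.2-fold lower at 48 h, although its adjusted p reached 0.0495 when 1 library was left out. CONSTANS-LIKE 9 on chromosome 3 had 0.496, 0.444 and 1.92 CPM at 48 h, against 149, 143 and 112 CPM at 12 h (−7.12 ± 1.11, or −8.15 without 48 h replicate 3), and its relative on chromosome 5 was lower too (−3.48 ± 0.61, or −4.60 without 48 h replicate 2). CONSTANS-LIKE 12 had 0, 0 and 0.535 CPM at 48 h, against 17.7, 18.96 and 196 CPM at 12 h (−8.67 ± 1.77, with no count left at 48 h without 48 h replicate 3, or −6.59 without 12 h replicate 3), where 12 h replicate 3 stood far above the other two libraries of its time.

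Of 26 photoreceptor and light-signalling groups, 9 were higher and 2 lower at 48 h (median 0.80). HY5-like, a bZIP activator of greening genes, had 31.8, 36.9 and 26.4 CPM at 48 h, against 2.19, 1.51 and 2.63 CPM at 12 h (3.91 ± 0.43). PIF3 on chromosome 7, a factor that phytochrome destroys in light, had 34.2, 57.5 and 27.6 CPM at 48 h, against 0.236, 0.311 and 0 CPM at 12 h (7.78 ± 1.31, or 7.18 without 12 h replicate 3, or 8.42 without 12 h replicate 2). PIF4 on chromosome 3 and SPA1-RELATED 3, a partner of the ubiquitin ligase COP1, were also higher (2.80 ± 0.47 and 2.08 ± 0.26). Both phototropin groups on chromosome 2, blue-light receptors that steer chloroplast movement and stomatal opening, were higher (1.33 ± 0.25 for phototropin 1 and 2.18 ± 0.35 for phototropin 2). Phytochrome B on chromosome 2 and cryptochrome 1 on chromosome 5, receptors for red and for blue light, did not pass the test, with 0.67 ± 0.22 for phytochrome B and 0.99 ± 0.33 for cryptochrome 1. COP1-interacting protein 7 on chromosome 2 had 20.5, 21.7 and 18.6 CPM at 48 h, against 68.4, 70.9 and 62.2 CPM at 12 h (−1.73 ± 0.20) and was the lower group of smallest p.

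Most of the light-harvesting antenna was higher at 48 h. Of 21 antenna groups, 17 were higher at 48 h and 0 lower, with a median log2 difference of 2.80. Summed over the list, levels were 112136, 118758 and 85166 CPM at 48 h, against 18025, 18136 and 17797 CPM at 12 h, so every 48 h library was above every 12 h library. When 1 library was left out, 15 or 16 groups were called higher. edgeR gave 0 lower at an unadjusted p under 0.05, DESeq2 called 0 lower and limma 1. At 0 h the sums were 38906, 70266 and 94669 CPM, below those of 48 h replicates 1 and 2. The antenna proteins bind chlorophyll a and b and pass absorbed light to the photosystems. The putative antenna group on chromosome 6 had 1131, 676 and 556 CPM at 48 h, against 1.18, 1.21 and 1.14 CPM at 12 h (9.38 ± 0.83). Antenna protein 215 on chromosome 5, a photosystem II antenna, had 20663, 22259.9 and 16427 CPM at 48 h, against 161, 124 and 154 CPM at 12 h (7.08 ± 0.45). The putative antenna group on chromosome 1 (MS.gene33844, chromosome copy 1.3, bases 70596070 to 70596962) had 246, 498 and 258 CPM at 48 h, against 4.57, 3.95 and 4.64 CPM at 12 h, and 5 of its copies were called (6.25 ± 0.39). In all of these the lowest 48 h library exceeded the highest 12 h library many times over. CP24 and CP26, the monomeric linkers between core and outer antenna, were higher by 4.33 ± 0.40 and 2.18 ± 0.30. Antenna 3C on chromosome 6 held 15.7, 10.6 and 4.57 CPM at 48 h and no count at 12 h, a difference of at least 217-fold against the floor. This group is 1 copy, which the edgeR test of single genes did not call (adjusted p = 0.0504). The photosystem I antenna groups 5 and 6 did not pass the test (0.23 ± 0.36 and −0.25 ± 0.20).

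**Figure D4:**
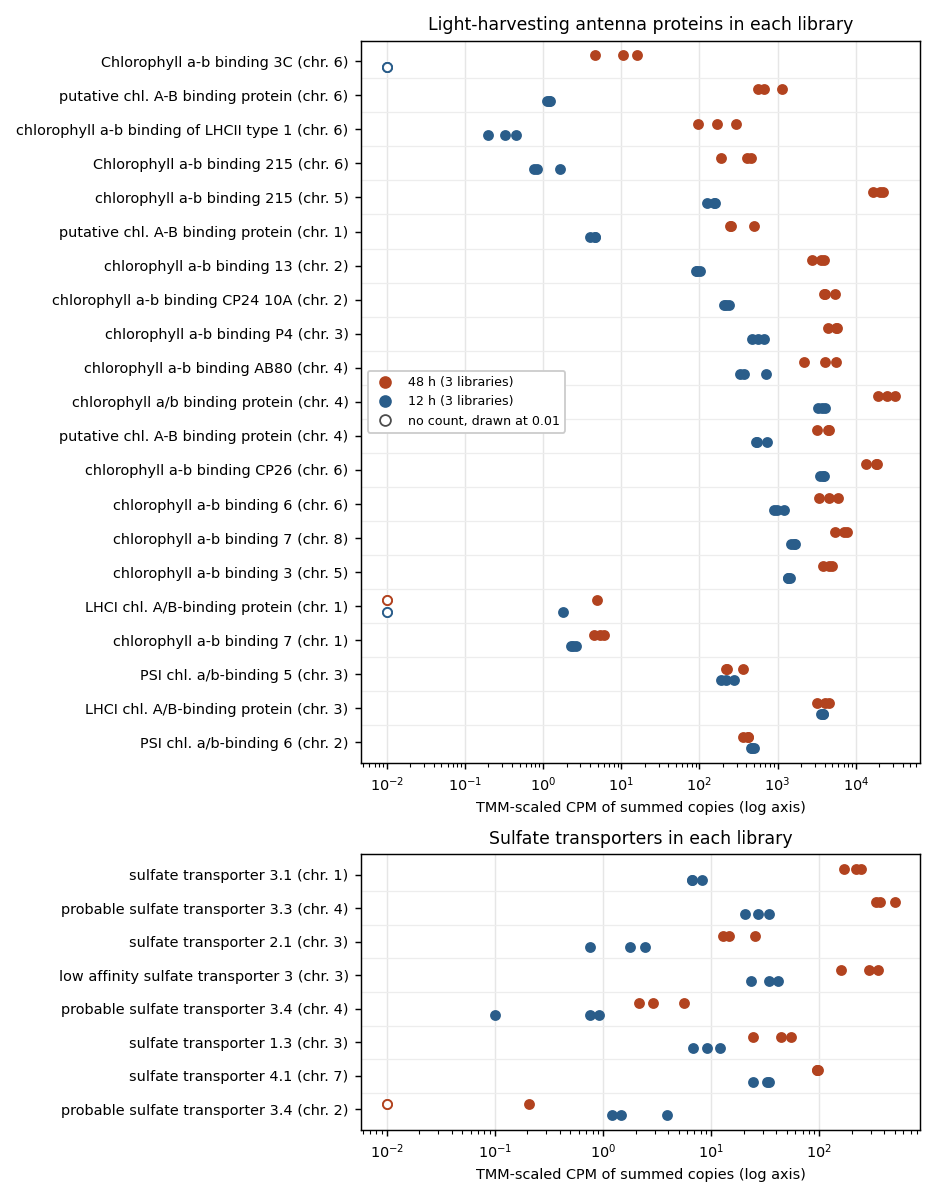
Levels of the antenna groups (top) and sulfate transporters (bottom) in the 3 libraries of 48 h (red, upper) and the 3 of 12 h (blue, lower), in TMM-scaled CPM of summed copies on log axes, each panel ordered by log2 difference. Open circles are libraries with no count, drawn at 0.01. In 17 of 21 antenna groups and 6 of 8 transporters the 48 h level was called higher.

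Early light-induced proteins, pigment binders of the same superfamily that appear in young or overlit leaves, formed 1 group on chromosome 1 with 13 tested copies, all called higher. Its levels were 509, 1246 and 524 CPM at 48 h, against 9.14, 7.13 and 8.76 CPM at 12 h (6.51 ± 0.66), and 48 h replicate 2 was well above the other two. Photosystem and electron transport subunits differed less. Of 42 groups, 16 (9 without 12 h replicate 1) were higher and 1 (0 without 12 h replicate 1) lower, with a median of 0.80. In the fit of all libraries, all 10 tested groups of photosystem I and 5 of 13 of photosystem II were higher. This split was made after the values were seen. Without 12 h replicate 1 only 9 groups of the whole list were higher, so the 10 did not all keep their call. Subunit N had 5838, 6289 and 4406 CPM at 48 h, against 1161, 1253 and 1002 CPM at 12 h (2.27 ± 0.28), and subunits K, O and III differed by 1.86 ± 0.40, 1.80 ± 0.33 and 1.48 ± 0.25. The 22 kDa protein of photosystem II, PsbS, which triggers the release of excess light as heat, had 3337, 3877 and 3319.6 CPM at 48 h, against 1506, 1564 and 1589.9 CPM at 12 h (1.18 ± 0.18). The 1 lower group was the root isozyme of ferredoxin-NADP reductase (−0.94 ± 0.28), with an adjusted p of 0.123 when 1 library was left out.

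In the Calvin cycle, rubisco activase 2, the ATPase that frees rubisco from inhibiting sugars, had 48164, 44785 and 39864 CPM at 48 h, against 6538, 7806 and 4350.3 CPM at 12 h (2.83 ± 0.29), with each 48 h library above every 12 h library. Sedoheptulose bisphosphatase, which commits carbon to regeneration of the acceptor, was higher by 1.23 ± 0.22. In all, 4 (2 without 12 h replicate 1) of 22 groups were higher and 1 (0 without 12 h replicate 1 and 3 without 48 h replicate 2) lower. Shares were 18.2% and 4.55%, against 13.4% and 10.7% of all groups. The median was 0.46, or −0.09 when libraries were scaled by totals alone. Among 25 groups of chlorophyll synthesis, 6 were higher and 3 (6 without 48 h replicate 2) lower, with a median of 0.34, or −0.21 when libraries were scaled by totals alone. The higher ones included regulated steps of the pathway. Glutamyl-tRNA reductase 1, the first committed enzyme, had 500.3, 471 and 364 CPM at 48 h, against 22.4, 20.97 and 26.6 CPM at 12 h on chromosome 5 (4.25 ± 0.31). Chlorophyllide a oxygenase, which makes chlorophyll b, had 287, 365 and 220.0 CPM at 48 h, against 19.4, 24.99 and 13.9 CPM at 12 h (3.90 ± 0.37). The magnesium-protoporphyrin ester cyclase had 3555, 4002 and 2826 CPM at 48 h, against 549, 589.5 and 549 CPM at 12 h (2.62 ± 0.22). The ranges of both times were apart in all 3. A single-copy magnesium chelatase ChlI group on chromosome 1 had no count at 48 h and 1.13, 0.934 and 1.35 CPM at 12 h, at least 13.97-fold lower. In chlorophyll breakdown, STAY-GREEN LIKE was higher (2.37 ± 0.28) and red chlorophyll catabolite reductase lower (−1.16 ± 0.21). Of the copies of that reductase, 1 was called higher and 1 lower.

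Most sulfate transporters tested were higher at 48 h. Of 8 groups tested, 6 were higher at 48 h and 1 (0 without 12 h replicate 1) lower (median 2.80), and 6 were called higher with any 1 library left out. Their sum was 1053, 1206 and 849 CPM at 48 h, against 128, 100.2 and 106 CPM at 12 h, so each 48 h library held several times the level of each 12 h library. At 0 h it was 1256, 870.4 and 1642 CPM. SULTR3.1, a transporter of the chloroplast envelope in Arabidopsis, had 241, 217 and 171 CPM at 48 h, against 6.68, 6.603 and 8.28 CPM at 12 h (4.87 ± 0.43). SULTR3.3 had 338, 502 and 362 CPM at 48 h, against 34.3, 26.97 and 20.5 CPM at 12 h (3.88 ± 0.37). Low affinity transporter 3 had 291, 349 and 160.4 CPM at 48 h, against 34.04, 23.2 and 41.8 CPM at 12 h (3.02 ± 0.37). In each of them both ranges were apart. SULTR2.1, of the vascular tissue, and SULTR1.3, of the phloem in Arabidopsis, were higher by 3.42 ± 0.56 and 2.14 ± 0.33. SULTR4.1, which empties the vacuole in Arabidopsis, had 96.02, 96.5 and 95.8 CPM at 48 h, against 33.96, 32.6 and 24.5 CPM at 12 h (1.66 ± 0.22), with the 48 h libraries almost level. SULTR3.4 on chromosome 2 was lower, at 0, 0.207 and 0 CPM at 48 h, against 3.95, 1.46 and 1.21 CPM at 12 h, with a highest adjusted p of 0.0901 when 1 library was left out, and SULTR3.4 on chromosome 4 did not pass (2.58 ± 0.84).

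Past uptake, a few enzymes of the pathway differed. Of 26 groups of sulfate reduction and cysteine synthesis, 5 (2 without 12 h replicate 1) were higher and 2 (1 without 12 h replicate 1) lower (median 0.41, or −0.17 when libraries were scaled by totals alone). Shares were 19.2% and 7.69%, not far from the 13.4% and 10.7% of all groups. Adenylylsulfate reductase 3 (APR3), of the family that sets the flux of sulfate reduction, had 1672, 1807 and 1006 CPM at 48 h, against 15.5, 16.01 and 51.4 CPM at 12 h (5.76 ± 0.61, or 6.58 without 12 h replicate 3, adjusted p = 0.000528). The lowest 48 h library lay well above the highest of 12 h, which was replicate 3. ATP sulfurylase 2 on chromosome 6, which activates sulfate and selenate, had 142, 279.9 and 92.6 CPM at 48 h, against 30.8, 28.6 and 29.1 CPM at 12 h (2.54 ± 0.40). The chloroplast ATP sulfurylase 1 had 645, 589 and 383 CPM at 48 h, against 249.7, 245 and 331 CPM at 12 h (0.97 ± 0.25), with an adjusted p of 0.09 when 1 library was left out. Adenylylsulfate kinase 3 on chromosome 5, which sends activated sulfate away from reduction, was lower with 5.27, 4.41 and 8.41 CPM at 48 h, against 16.8, 20.9 and 58.5 CPM at 12 h (−2.41 ± 0.51, or −1.63 without 12 h replicate 3). Sulfite reductase, the enzyme between APR and cysteine, gave 0.38 ± 0.32, and all cysteine synthase groups missed the threshold.

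Of 19 groups of the methionine cycle and selenium handling, 3 (1 without 12 h replicate 1) were higher and 2 (0 without 48 h replicate 1) lower. Shares were 15.8% and 10.5%, near the 13.4% and 10.7% of all groups. Cystathionine gamma-synthase 1, the committed enzyme of methionine synthesis and a route for selenocysteine, had 464, 485 and 349 CPM at 48 h, against 174, 145 and 157 CPM at 12 h (1.45 ± 0.25). S-adenosylmethionine synthase 3 was lower with 0.496, 0.710 and 0.778 CPM at 48 h, against 5.13, 4.702 and 6.19 CPM at 12 h (−3.01 ± 0.66), and its adjusted p reached 0.0531 when 1 library was left out. The 2 genes whose names refer to selenium did not pass the test. Selenium-binding protein 1 had 81.4, 77.1 and 66.3 CPM at 48 h, against 61.3, 56.6 and 44.6 CPM at 12 h (0.47 ± 0.20, adjusted p = 0.13). Selenocysteine methyltransferase, which makes methylselenocysteine in selenium accumulators, had 1.88, 0.296 and 0.778 CPM at 48 h, against 1.62, 2.15 and 0.825 CPM at 12 h (−0.64 ± 0.77, adjusted p = 0.585). Its ranges overlapped widely.

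Selenite itself is carried in rice by phosphate transporters and by the silicon channel NIP2-1. Of 9 phosphate transporter groups, 3 were higher at 48 h and 0 (1 without 48 h replicate 2) lower. The plastid transporter PHT2-1 had 215, 280.0 and 206 CPM at 48 h, against 46.9, 37.7 and 24.1 CPM at 12 h (2.69 ± 0.28), and the xylem-loading exporter PHO1 had 7.004, 17.2 and 5.93 CPM at 48 h, against 0.270, 0.147 and 0.185 CPM at 12 h (5.63 ± 0.95, or 4.99 without 48 h replicate 2). PHT1-9 was higher by 2.20 ± 0.48. The 3 PHT1-4 groups missed the threshold. Called lower were 0 by DESeq2 and 1 by limma, and 0 had an unadjusted edgeR p under 0.05. Among 24 aquaporin groups, 8 (4 without 12 h replicate 1) were higher and 2 (1 without 12 h replicate 1) lower around a median of 0.01, or −0.54 when libraries were scaled by totals alone. NIP2-1 had 45.9, 31.7 and 40.01 CPM at 48 h, against 1.43, 0.508 and 0.768 CPM at 12 h (5.44 ± 0.59). PIP2-1 on chromosome 7, a water channel of the plasma membrane, had 48.1, 40.7 and 24.1 CPM at 48 h, against 8.19, 5.83 and 6.36 CPM at 12 h (2.47 ± 0.37). The NIP-type group on chromosome 3 was lower with 4.99, 11.5 and 4.33 CPM at 48 h, against 30.3, 32.5 and 32.3 CPM at 12 h (−2.20 ± 0.40), 48 h replicate 2 being the highest of its time.

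Of 44 groups of nitrate genes, 8 were higher (18.2%, not far from the 13.4% of all groups). Lower were 2 (1 without 12 h replicate 2), or 4.55% against 10.7% of all groups. The median was 0.26, or −0.27 when libraries were scaled by totals alone. NPF6.4, of the nitrate and peptide transporter family, had 231, 230.5 and 240.1 CPM at 48 h, against 10.3, 11.8 and 11.3 CPM at 12 h, and all 4 copies were called (4.39 ± 0.22, adjusted p = 3.28e-05). The libraries of each time lay close together. NPF6.3, the dual-affinity nitrate transporter and sensor, had 19.8, 40.3 and 27.7 CPM at 48 h, against 4.23, 2.57 and 3.09 CPM at 12 h (3.15 ± 0.33). Nitrate reductase, which sets the pace of assimilation, had 386, 738 and 427 CPM at 48 h, against 64.3, 52.1 and 162 CPM at 12 h (2.48 ± 0.53, or 3.16 without 12 h replicate 3). Nitrite reductase, the next enzyme, had 185, 196 and 82.1 CPM at 48 h, against 18.6, 19.6 and 21.5 CPM at 12 h (2.95 ± 0.41). NPF1.2 was lower (−3.07 ± 0.60, or −2.24 without 12 h replicate 3).

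Starch genes changed in both directions. Of 41 groups, 6 were higher (14.6%, near the 13.4% of all groups). Lower were 8 (5 without 48 h replicate 1), or 19.5% against 10.7% of all groups. The lower ones included some of the enzymes that open and degrade starch at night. Glucan water dikinase, which phosphorylates the granule, had 14.4, 14.2 and 22.3 CPM at 48 h, against 239, 465 and 376 CPM at 12 h (−4.41 ± 0.42). The phosphatase DSP4, which removes that phosphate, had 9.79, 11.3 and 23.6 CPM at 48 h, against 173, 168 and 244 CPM at 12 h (−3.71 ± 0.68). DPE2, which uses the exported maltose, had 33.8, 38.4 and 36.2 CPM at 48 h, against 225, 267 and 419 CPM at 12 h (−3.07 ± 0.34). All libraries of 48 h lay below all of 12 h in these 3 genes. The debranching enzyme isoamylase 3 was lower as well (−3.58 ± 0.72). Soluble starch synthase 1 was higher with 188, 169 and 192 CPM at 48 h, against 44.3, 45.2 and 45.96 CPM at 12 h (2.02 ± 0.18). Granule-bound synthase 1 was higher on chromosome 8 (2.69 ± 0.27) and lower on chromosome 1 (−1.86 ± 0.47, with an adjusted p of 0.075 when 1 library was left out). Beta-amylases 3 and 8 were higher (1.84 ± 0.37 and 1.36 ± 0.22). In sugar metabolism and transport, 14 (8 without 12 h replicate 1) of 59 groups were higher and 8 (5 without 12 h replicate 1) lower. A SWEET sugar exporter on chromosome 3 had 79.6, 43.1 and 53.5 CPM at 48 h, against 0.489, 0 and 0.981 CPM at 12 h (6.88 ± 1.03, or 7.92 without 12 h replicate 3). A trehalose-phosphate synthase, which makes a sugar signal, was lower with 4.08, 8.28 and 8.87 CPM at 48 h, against 56.4, 46.1 and 37.3 CPM at 12 h (−2.72 ± 0.38).

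Enzymes of the phenylpropanoid pathway, which turns phenylalanine into lignin units, flavonoids and coumarins, were higher at 48 h in 17 of 52 groups and lower in 4. Their sum was 8597, 7065 and 8613 CPM at 48 h, against 2209, 2370.2 and 3275 CPM at 12 h. The first 3 enzymes of the pathway were each higher. The phenylalanine ammonia-lyase group of 9 copies on chromosome 7 had 987, 867 and 941 CPM at 48 h, against 51.9, 43.3 and 64.1 CPM at 12 h, and all 9 copies were called (4.13 ± 0.33). Cinnamate 4-hydroxylase had 599, 647 and 489.7 CPM at 48 h, against 35.6, 61.2 and 109.7 CPM at 12 h (3.07 ± 0.42). 4-coumarate-CoA ligase 1 on chromosome 2 had 320.0, 312 and 289 CPM at 48 h, against 13.6, 16.4 and 31.4 CPM at 12 h (3.91 ± 0.35). For these 3 enzymes each 48 h library was above every 12 h library. Cinnamoyl-CoA reductase 1, the entry to lignin, was higher by 2.13 ± 0.34. Caffeoylshikimate esterase was higher on chromosome 8 (2.57 ± 0.30) and lower on chromosomes 4 and 7 (−1.32 ± 0.20 and −1.76 ± 0.38).

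Of 60 flavonoid and isoflavonoid groups, 20 (11 without 12 h replicate 1) were higher and 0 (1 without 12 h replicate 1) lower (median 0.89). By DESeq2 1 and by limma 2 were lower, and by edgeR 2 at an unadjusted p under 0.05. Isoflavonoids are the legume branch that includes the phytoalexin medicarpin. Isoflavone 2'-hydroxylase, on the way to medicarpin, had 86.7, 86.6 and 82.9 CPM at 48 h, against 13.3, 16.1 and 17.8 CPM at 12 h (2.44 ± 0.20). Hydroxyisoflavanone synthase, the entry to the branch, had 179.8, 115 and 188 CPM at 48 h, against 8.06, 9.21 and 13.7 CPM at 12 h (3.96 ± 0.48). An isoflavone 4'-O-methyltransferase group of 22 copies had 193, 82.4 and 194 CPM at 48 h, against 15.4, 16.6 and 21.1 CPM at 12 h (3.15 ± 0.49). In those 2 genes 48 h replicate 2 was the lowest library of its time but above every 12 h library. In the flavonoid branch, dihydroflavonol reductase had 64.4, 69.5 and 62.6 CPM at 48 h, against 7.28, 7.46 and 7.196 CPM at 12 h (3.16 ± 0.30). Chalcone synthase 1, the first enzyme of both branches, had 96.02, 468 and 57.2 CPM at 48 h, against 8.45, 5.95 and 14.9 CPM at 12 h (4.41 ± 0.86, or 2.97 without 48 h replicate 2), and here 48 h replicate 2 was the highest.

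Defence regulators that changed were higher at 48 h by the edgeR test. Of 52 WRKY factors, which bind the W-box of defence and senescence genes, 18 (9 without 12 h replicate 1) were higher and 0 lower. DESeq2 called 1 and limma 10 lower, while edgeR at an unadjusted p under 0.05 gave 2. WRKY41 on chromosome 4 had 135, 79.1 and 138 CPM at 48 h, against 3.84, 3.26 and 2.35 CPM at 12 h (5.22 ± 0.63). WRKY15 had 70.8, 62.4 and 52.1 CPM at 48 h, against 16.2, 12.2 and 13.03 CPM at 12 h (2.16 ± 0.21), and WRKY53, a senescence regulator in Arabidopsis, had 74.8, 59.8 and 61.5 CPM at 48 h, against 20.6, 14.8 and 10.3 CPM at 12 h (2.10 ± 0.34). No range of 48 h touched that of 12 h in these 3 factors. Of 15 regulators of salicylate immunity, 5 (2 without 12 h replicate 2) were higher and 0 lower. edgeR gave 0 lower at an unadjusted p under 0.05, DESeq2 called 0 lower and limma 1. CBP60A, a calmodulin-binding factor of that pathway, had 85.7, 81.3 and 72.7 CPM at 48 h, against 9.004, 10.1 and 18.9 CPM at 12 h (2.66 ± 0.30). SARD1, which switches on salicylate synthesis, had 36.7, 22.1 and 37.7 CPM at 48 h, against 11.4, 10.5 and 6.84 CPM at 12 h (1.75 ± 0.29).

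Calcium sensors and their kinases gave 31 higher and 5 (1 without 12 h replicate 1) lower of 92 groups. CIPK2 on chromosome 7, a kinase that calcineurin B-like sensors activate, had 136, 153 and 141 CPM at 48 h, against 4.25, 3.31 and 6.14 CPM at 12 h (4.97 ± 0.40). CIPK12 had 239, 210.4 and 262 CPM at 48 h, against 10.4, 7.05 and 19.01 CPM at 12 h (4.28 ± 0.37). Calcium-dependent kinase 28, a brake on immune receptors in Arabidopsis, had 188, 153 and 115 CPM at 48 h, against 16.6, 23.4 and 19.6 CPM at 12 h (2.94 ± 0.26). The lower group of smallest p was the calmodulin-like protein CML13 on chromosome 5 (−1.25 ± 0.24). Among 68 groups of pathogenesis-related proteins and chitinases, 13 (7 without 12 h replicate 1) were higher and 4 (1 without 12 h replicate 1) lower. A class V chitinase, which cuts fungal wall polymers, had 38.9, 26.4 and 35.1 CPM at 48 h, against 1.52, 1.51 and 2.59 CPM at 12 h (4.16 ± 0.32). The glucanase group of 32 copies on chromosome 4 had 1584, 706 and 1911 CPM at 48 h, against 236, 296 and 277 CPM at 12 h (2.38 ± 0.44). A thaumatin-like group on chromosome 5 was lower (−2.84 ± 0.43). In the acidic endochitinase group of 10 copies the ranges overlapped, with 651, 94.5 and 769.8 CPM at 48 h, against 44.9, 112 and 64.9 CPM at 12 h, since 48 h replicate 2 lay within the 12 h range. It was called higher (2.77 ± 0.72, or 3.27 without that library), with a highest adjusted p of 0.0841 when 1 library was left out.

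Among hormone genes, the auxin list had 25 of 93 groups higher and 11 (7 without 48 h replicate 1) lower (median 0.39, or −0.18 when libraries were scaled by totals alone). ARG2 on chromosome 1, an auxin-induced gene of mung bean, had 230.2, 253 and 169 CPM at 48 h, against 5.395, 4.75 and 7.94 CPM at 12 h (5.17 ± 0.36). SAUR36, a small auxin-up RNA linked with leaf senescence in Arabidopsis, had 326, 283 and 327 CPM at 48 h, against 46.4, 37.3 and 27.97 CPM at 12 h (3.07 ± 0.34). The repressor IAA14 was higher by 2.91 ± 0.53. ABP19a, an auxin-binding protein by name, counted over 28 copies, was lower with 1.52, 8.16 and 1.41 CPM at 48 h, against 586, 690.2 and 586 CPM at 12 h (−7.40 ± 1.09, or −8.73 without 48 h replicate 2), and 48 h replicate 2 was the highest of its time. AIR12, an ascorbate-reducible membrane protein, had 8.25, 13.8 and 7.901 CPM at 48 h, against 67.4, 70.2 and 65.5 CPM at 12 h, with all 5 copies called lower (−2.76 ± 0.26). The auxin receptor AFB2 was lower too (−1.59 ± 0.27).

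Ethylene response factors were higher in 13 (6 without 12 h replicate 2) and lower in 7 (3 without 48 h replicate 1) of 53 groups. ERF098 had 7.804, 6.83 and 7.15 CPM at 48 h, against 0.202, 0.328 and 0.114 CPM at 12 h (5.07 ± 0.54). ERF8 had 11.003, 7.78 and 22.5 CPM at 48 h, against 181, 168 and 98.9 CPM at 12 h (−3.44 ± 0.50), and its level at 0 h was 0.473 to 1.14 CPM. Both ranges were apart in these factors. Abscisic acid genes gave 16 higher and 7 (3 without 48 h replicate 1) lower of 87. These shares, 18.4% and 8.05%, were not far from the 13.4% and 10.7% of all groups. The protein phosphatase PP2C 2 was higher (2.26 ± 0.25), and the bZIP factor ABI5-like 2 lower (−1.95 ± 0.30). Jasmonate genes gave 4 (0 without 12 h replicate 1) higher and 4 (2 without 12 h replicate 3) lower of 38, near the background of all groups. A 13-lipoxygenase, the first enzyme of jasmonate synthesis, had 62.1, 38.99 and 78.3 CPM at 48 h, against 172, 209.9 and 273 CPM at 12 h (−1.87 ± 0.35). Cytokinin genes gave 4 (2 without 12 h replicate 1) higher and 3 (0 without 12 h replicate 1) lower of 24. Their shares, 16.7% and 12.5%, were also near the background. The phosphotransfer protein 1, which relays the cytokinin signal, had 269, 208 and 251 CPM at 48 h, against 73.8, 65.9 and 57.9 CPM at 12 h (1.88 ± 0.23). NAC and MYB factors gave 7 (4 without 12 h replicate 1) higher and 4 (1 without 48 h replicate 1) lower of 33, and 6 higher and 13 (5 without 12 h replicate 2) lower of 78. MYB306 was higher (4.59 ± 0.44), and PHL8, named after the phosphate response factor PHR1, lower (−2.89 ± 0.32).

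Of the groups of cytosolic protein synthesis that changed, most were lower at 48 h, but most groups did not pass the test, and the counts moved widely when 1 library was left out. Of 206 groups of cytosolic ribosomal proteins, 57 (16 without 48 h replicate 1 and 148 without 48 h replicate 2) were lower and 4 (2 without 12 h replicate 1) higher, with a median log2 difference of −0.79 against −0.05 over all groups. Of 76 groups of the 40S subunit 67 were below 0 (median −0.72, 18 called lower), and of 130 groups of the 60S subunit 118 were below 0 (median −0.81, 39 called lower). Relative to the 12 h mean, the list's median was −1.19, −0.19 and −1.29 in 48 h replicates 1, 2 and 3, and −0.05, −0.05 and 0.10 in the 12 h replicates. Replicate 2, whose copy usage differed from that of 48 h replicates 1 and 3, thus lay close to the 12 h libraries. Without it, 47 groups of the 40S and 101 of the 60S subunit were lower. The list summed to 11249, 17225 and 11113 CPM at 48 h, against 17136, 17587 and 20088 CPM at 12 h. In that sum 48 h replicate 2 lay within the range of the 12 h libraries.

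RPL22-2 was the ribosomal protein of smallest p in the lower direction, with 17.7, 26.7 and 15.996 CPM at 48 h, against 75.6, 73.7 and 70.6 CPM at 12 h (−1.86 ± 0.23). RPL44 had 41.005, 42.004 and 40.6 CPM at 48 h, against 80.5, 84.1 and 77.1 CPM at 12 h (−0.97 ± 0.16), and RPS14 had 53.7, 98.5 and 51.2 CPM at 48 h, against 158, 168 and 165 CPM at 12 h (−1.27 ± 0.27). RPL44 was even across the 48 h libraries, whereas replicate 2 was the highest for RPS14 and RPL22-2. A group described as L22-2-like on the same chromosome was higher with 3.78, 6.71 and 3.04 CPM at 48 h, against 0, 0.0819 and 0.156 CPM at 12 h (5.75 ± 0.92, or 6.69 without 12 h replicate 3). Of 69 ribosome biogenesis factors, 18 (3 without 48 h replicate 1) were lower and 1 (0 without 12 h replicate 1 and 2 without 48 h replicate 2) higher (median −0.82). The per-library medians were −1.36, −0.39 and −1.14 at 48 h. UTP18, of the complex that cuts the ribosomal RNA precursor, had 4.74, 5.38 and 5.01 CPM at 48 h, against 31.97, 32.9 and 25.1 CPM at 12 h (−2.57 ± 0.30). Of 81 translation factors, 15 (8 without 12 h replicate 1 and 31 without 48 h replicate 2) were lower and 3 (1 without 12 h replicate 1) higher (median −0.44). Initiation factor 3 subunit K had 10.1, 20.4 and 16.6 CPM at 48 h, against 47.4, 51.3 and 58.3 CPM at 12 h (−1.74 ± 0.29). Elongation factor 1-alpha on chromosome 8, which brings aminoacyl-tRNA to the ribosome, had 27.4, 9.91 and 33.3 CPM at 48 h, against 505, 571 and 566 CPM at 12 h over 23 copies (−4.54 ± 0.46), although 4 of its copies were called higher and 2 lower. An elongation factor 1-alpha-like group on the same chromosome had no count at 48 h and 19.4, 23.3 and 19.8 CPM at 12 h, at least 256-fold lower. It had no count at 0 h either, so its reads came from the 12 h libraries alone. Reads can be split among such near-identical copies, so these single groups are uncertain.

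**Figure D5:**
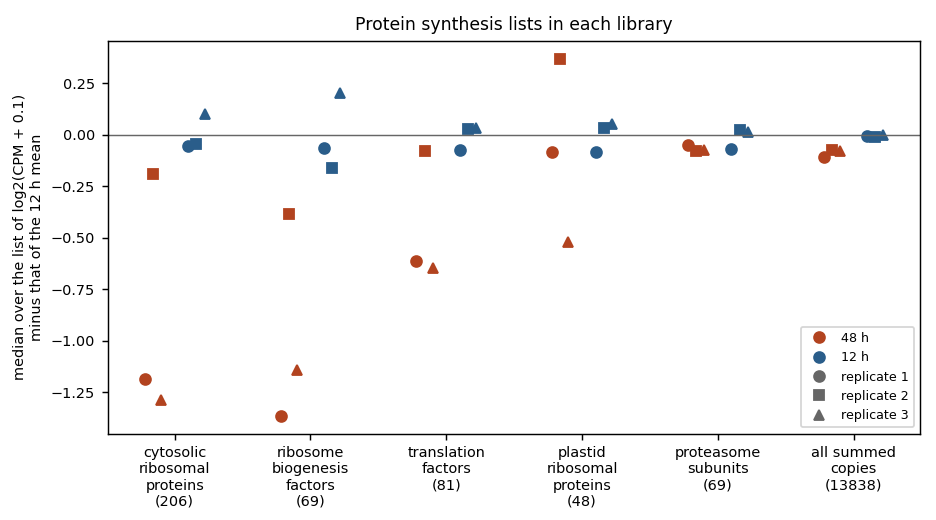
Median over each list of log2(CPM + 0.1) minus that of the 12 h mean, for the 3 libraries of 48 h (red, left) and of 12 h (blue, right), with symbols for replicates and the number of summed groups in parentheses. Replicates 1 and 3 of 48 h lie at −1.19 and −1.29 for cytosolic ribosomal proteins, and replicate 2 at −0.19. Proteasome subunits and all summed copies lie near 0 in each library.

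Ribosomal proteins of the plastid gave 2 (0 without 12 h replicate 1) higher and 4 lower of 48 groups with a median of −0.04. Their per-library medians at 48 h were −0.08, 0.37 and −0.52. The proteasome, which degrades ubiquitin-tagged proteins, gave 4 (1 without 12 h replicate 1) higher and 2 (1 without 12 h replicate 1 and 4 without 48 h replicate 2) lower of 69 groups (median −0.06). Whether the cytosolic and plastid lists differ from each other was not tested. Chaperones gave 7 higher and 14 (7 without 48 h replicate 1) lower of 109 groups. The plastid co-chaperone dnaJ 11 had 68.4, 86.5 and 74.9 CPM at 48 h, against 6.98, 8.897 and 8.26 CPM at 12 h (3.25 ± 0.21). The DnaJ C76 group on chromosome 4 had 438, 534 and 463 CPM at 48 h, against 68.98, 75.7 and 84.8 CPM at 12 h (2.64 ± 0.28), while that on chromosome 1 had 13.98, 29.6 and 12.1 CPM at 48 h, against 265, 264 and 301 CPM at 12 h (−3.90 ± 0.43). The RbcX chaperones, which assemble rubisco in cyanobacteria, were split in the same way, with RbcX 2 at 1.73 ± 0.22 and RbcX 1 at −7.15 ± 0.94, or −8.27 without 48 h replicate 1. The mitochondrial HSP90-6 had 0.331, 3.34 and 1.51 CPM at 48 h, against 26.4, 29.2 and 51.4 CPM at 12 h (−4.37 ± 0.82, or −5.26 without 48 h replicate 2). A localized small heat shock protein on chromosome 3 had 176, 284 and 164 CPM at 48 h, against 20.8, 22.1 and 22.2 CPM at 12 h (3.26 ± 0.39).

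Wax genes were higher at 48 h in a larger share than the 13.4% of all groups. Of 33 groups of cuticular wax and very-long-chain lipid synthesis, 14 were higher and 1 (0 without 12 h replicate 3 and 2 without 48 h replicate 3) lower (median 1.18). ECERIFERUM 2, needed for wax chain extension, had 28.5, 26.5 and 39.5 CPM at 48 h, against 1.298, 1.16 and 2.97 CPM at 12 h on chromosome 3 (4.11 ± 0.41). ECERIFERUM 3, of the alkane-forming step, had 100.1, 44.4 and 108 CPM at 48 h, against 1.35, 0.983 and 8.76 CPM at 12 h on chromosome 2 (4.50 ± 0.90, or 6.19 without 12 h replicate 3). Ketoacyl-CoA synthase 1, an elongase, had 114, 28.1 and 79.8 CPM at 48 h, against 5.699, 6.898 and 5.52 CPM at 12 h (3.61 ± 0.48). In those 2 genes, 48 h replicate 2 was the lowest library of its time but above all 12 h libraries. ECERIFERUM 1 on chromosome 8 was lower (−3.24 ± 0.83, or −2.66 without 12 h replicate 3), with a highest adjusted p of 0.0761 when 1 library was left out. Markers of the epidermis, whose tested groups are all ECERIFERUM genes of this list, gave 4 higher and 1 (0 without 12 h replicate 3) lower of 8 tested, and their sum over 14 groups was 198 to 332 CPM at 48 h and 70.5 to 163 CPM at 12 h. The epidermal regulator MERISTEM L1 had no count. Their part in the wax result was not tested.

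Pectin-modifying enzymes gave 17 (11 without 12 h replicate 2) higher and 2 (0 without 48 h replicate 1 and 5 without 48 h replicate 2) lower of 74 groups. A pectinesterase on chromosome 3 had 153, 108 and 94.7 CPM at 48 h, against 15.1, 8.34 and 14.5 CPM at 12 h (3.23 ± 0.30). Cellulose synthesis, laccases and fasciclins gave 14 (6 without 12 h replicate 1) higher and 5 (2 without 12 h replicate 1) lower of 49. CELLULOSE SYNTHASE INTERACTIVE 1, which ties the enzyme to microtubules, was higher with 22.2, 23.9 and 22.97 CPM at 48 h, against 4.16, 2.18 and 3.47 CPM at 12 h (2.81 ± 0.29). CESA1, of the primary wall, was lower with 118, 186 and 125 CPM at 48 h, against 329, 295 and 366 CPM at 12 h (−1.21 ± 0.24). Among the secondary wall genes, fasciclin-like arabinogalactan protein 12 had 22.8, 13.02 and 11.96 CPM at 48 h, against 1.48, 1.51 and 0.853 CPM at 12 h on chromosome 2 (3.63 ± 0.44). Laccase 4, which polymerises lignin, had 16.4, 23.8 and 3.403 CPM at 48 h, against 0.910, 1.196 and 1.49 CPM at 12 h on chromosome 3 (3.59 ± 0.75). The 48 h libraries were uneven here, with replicate 3 the lowest. Xylem and secondary wall markers as a whole gave 10 (4 without 12 h replicate 1) higher and 1 (0 without 12 h replicate 1) lower of 20, and summed over 24 groups to 135 to 268 CPM at 48 h and 93.8 to 97.4 CPM at 12 h. The amount of vascular tissue per sample was not measured, and its part in the wall and lignin results was not tested. Phloem markers summed to 303 to 862 CPM at 48 h and 1017 to 2214 CPM at 12 h over 17 groups, with 2 (1 without 12 h replicate 1 and 4 without 48 h replicate 2) of 10 tested groups higher and 0 (1 without 48 h replicate 3) lower. Called lower were 1 by DESeq2 and 1 by limma, and 1 had an unadjusted edgeR p under 0.05.

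Redox genes, often studied under selenium, had no common direction. Of 24 antioxidant enzyme groups 0 (2 without 48 h replicate 3) were higher and 2 (0 without 12 h replicate 1) lower with a median of 0.05, or −0.50 when libraries were scaled by totals alone. By DESeq2 2 and by limma 0 were higher, and by edgeR 3 at an unadjusted p under 0.05. Of 31 glutathione S-transferases 7 (4 without 12 h replicate 1) were higher and 3 (0 without 12 h replicate 2) lower, and of 27 groups of glutathione synthesis, reduction and glutaredoxins 3 (1 without 12 h replicate 2) were higher and 4 (1 without 12 h replicate 1) lower. GST 23, of the detoxifying family, had 94.7, 56.4 and 97.4 CPM at 48 h, against 22.8, 13.1 and 24.5 CPM at 12 h (2.04 ± 0.32). The chloroplast glutathione synthetase, last enzyme of glutathione synthesis, had 14.8, 23.6 and 11.6 CPM at 48 h, against 47.1, 53.95 and 50.9 CPM at 12 h (−1.60 ± 0.30). Its ranges were apart, and 48 h replicate 2 was the highest of its time. Metal transport and storage gave 11 (3 without 48 h replicate 1) higher and 1 (0 without 12 h replicate 1 and 2 without 48 h replicate 2) lower of 37. Nramp6, a manganese and iron carrier, had 46.6, 68.8 and 42.8 CPM at 48 h, against 16.3, 11.5 and 13.1 CPM at 12 h (1.95 ± 0.25).

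Gibberellin and brassinosteroid genes gave 2 (0 without 12 h replicate 1) higher and 1 (0 without 12 h replicate 3 and 2 without 48 h replicate 2) lower of 21, and autophagy genes with vacuolar proteases 3 (1 without 12 h replicate 1 and 7 without 48 h replicate 2) higher and 6 (2 without 12 h replicate 2) lower of 42. Cell cycle genes (cyclins, kinesins and DNA replication factors) gave 3 higher and 9 (2 without 12 h replicate 2) lower of 60. Histones gave 0 higher and 2 (0 without 12 h replicate 1) lower of 21. DESeq2 called 0 and limma 0 higher, while edgeR at an unadjusted p under 0.05 gave 1. Expansins with xyloglucan enzymes, which loosen the wall, gave 4 higher and 4 (2 without 12 h replicate 1) lower of 52. Dehydrins and LEA proteins, which protect drying cells, gave 1 (0 without 12 h replicate 1) higher and 1 (2 without 48 h replicate 3) lower of 11. Protease inhibitors gave 1 (0 without 12 h replicate 1 and 3 without 48 h replicate 2) higher and 3 (0 without 48 h replicate 3) lower of 15. ABC transporters gave 10 (5 without 12 h replicate 1) higher and 5 (1 without 12 h replicate 1) lower of 71. Shares of the ABC list were 14.1% and 7.04%, near the 13.4% and 10.7% of all groups.

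Ranked by size alone, without regard to lists, the 8 groups of largest log2 rise with at least 10 FPKM were headed by genes with no count at 12 h. A gallate glucosyltransferase of 1 copy had 20.9, 118 and 11.5 CPM at 48 h, with a mean at least 1059-fold above the floor. That mean was raised by 48 h replicate 2, and the log2 difference was 14.20 ± 2.43, or 12.61 without this library. A receptor-like protein on chromosome 6 had 35.4, 6.63 and 42.3 CPM at 48 h (at least 592-fold), and a C2H2 zinc finger protein on chromosome 2 had 15.3, 5.47 and 15.4 CPM (at least 254-fold). A wound-inducible terpene synthase had 62.02, 4.05 and 189 CPM at 48 h, against 0, 0.0655 and 0 CPM at 12 h (11.80 ± 2.09, or 10.44 without 48 h replicate 3, with no count left at 12 h without 12 h replicate 2). These 4 were uneven at 48 h, with replicate 2 the highest for the glucosyltransferase and the lowest for the other three. The rest of the 8 were LHY, B-box 32 and the antenna groups 3C and putative on chromosome 6, given above. The 8 groups of largest fall held, beside JMJ30, the elongation factor 1-alpha-like group and CONSTANS-LIKE 7 and 12, a putative zinc finger protein on chromosome 5 with no count at 48 h and 12.4, 13.9 and 13.2 CPM at 12 h, at least 162-fold lower. FAM136A had 0, 0.118 and 0 CPM at 48 h, against 21.7, 24.1 and 20.5 CPM at 12 h (−9.13 ± 1.86, with no count left at 48 h without 48 h replicate 2, or −8.52 without 48 h replicate 3), inorganic pyrophosphatase 2 had 0, 0 and 0.243 CPM at 48 h, against 18.5, 36.7 and 10.5 CPM at 12 h (−7.94 ± 1.28, with no count left at 48 h without 48 h replicate 3), and dormancy-associated protein homolog 3 had 0, 0 and 0.438 CPM at 48 h, against 36.4, 41.1 and 10.5 CPM at 12 h (−7.56 ± 1.32, with no count left at 48 h without 48 h replicate 3). In the 3 of them every 48 h library was below 1 CPM.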

How the data were processed

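RNA of 9 leaf libraries of alfalfa was sequenced, and the deposited table gives for each of 164632 genes a raw read count per library and an FPKM value (fragments relative to gene length and library size), per the file headers. HISAT and StringTie are named in the submitters' processing notes without a version or role. The sources used here do not name a genome build or annotation release, and no sequence was used. FPKM is listed at 0.0001 where the deposited count is 0.

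Counts were tested as deposited, for single genes and for copies summed over one cleaned, informative description on one numbered chromosome. The filter kept features that reached an FPKM of 1 in 3 or more libraries. edgeR's quasi-likelihood F-test (edgeR 4.0.16 in R 4.3.3, TMM scaling, all 9 libraries, 1 mean per time) was run on the contrast of 48 h minus 12 h, with Benjamini-Hochberg adjustment over all features and a threshold of 0.05. On data simulated with 4-, 16- and 64-fold changes, it recovered 0%, 14.9% and 65.2% of the changed genes among 50878 single genes. Among 13838 summed groups it recovered 28.4%, 100% and 100%. False calls were 0 among genes and 12 among groups. The simulation gave all features 1 common coefficient of variation and drew libraries independently. The real data differ in spread from gene to gene, so these shares do not give the recovery in them. Alternatives used limma 3.58.1, DESeq2 1.42.0, other scalings and filters, a replicate block, each library left out, and libraries of like copy usage summed. Tables and figures were made with pandas 2.3.3, numpy 2.4.6 and matplotlib 3.10.9 in Python 3.11.15.

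The gene lists match words in the descriptions, and accidental matches were removed after the matches were seen. The lists and the comparison itself were chosen with earlier results of these data known. The naming rule took the 8 highest and 8 lowest log2 differences among called groups (mean FPKM of at least 10 at the higher time, separate ranges, at most 12 copies) and, per list, the called group of smallest adjusted p in each direction, 117 groups in all. Other members were named after their values were seen. Summed groups rest on the deposited descriptions, and reads shared by near-identical copies may be split among them.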

Additional observations from a re-analysis of the deposited data

How the results depend on the processing

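The number of single genes called, 5378, was within 1.5 times under median-of-ratios scaling, library totals alone, a filter of FPKM of at least 5 and a fit of only the 6 libraries of 48 h and 12 h. It was 3332 with no filter, 12403 with DESeq2, 12845 and 10640 with limma at pseudocounts of 1 and 0.1, and 1771 with a replicate block. The number of summed groups called, 3334, was within 1.5 times under those same settings except library totals alone (5038), and also with no filter, DESeq2 and the replicate block (2475). limma gave 5655 and 5344 groups. With libraries of like copy usage summed, edgeR called 0 genes and 1 group (4458 genes and 2132 groups at an unadjusted p under 0.05). Leaving out 1 library of any time gave 1756 (without 12 h replicate 2) to 7336 genes (without 48 h replicate 2) and 1908 (without 12 h replicate 1) to 3878 groups (without 48 h replicate 2). It also gave 1883 genes without 12 h replicate 1, 2454 without 48 h replicate 1, 2843 without 48 h replicate 3 and 2711 without 12 h replicate 3. The groups were 1915 without 48 h replicate 1, 2258 without 48 h replicate 3 and 1947 without 12 h replicate 2. Deviations of same-numbered libraries of 48 h and 12 h correlated at 0.09, −0.08 and 0.00. These values cannot show whether same numbers mark related samples, which the labels leave unsaid. Jasmonate genes summed to 3787, 1833 and 14796 CPM at 48 h and 3391, 3769 and 15843 CPM at 12 h, with replicate 3 highest at both. Protease inhibitors shared this, whereas chaperones were highest in replicate 2 at 48 h and replicate 3 at 12 h. None of the 117 groups named by the rule reversed. The rule chose them from the main fit by small adjusted p or large difference, which favours their being called again in related fits. Of the named groups, 109 were called with the replicate block, 112 with library totals alone, and 96 in every fit that left out a 48 h or 12 h library. Only 1 was called once libraries alike in copy usage had been summed. The cause of these movements was not tested. Counts of 3 per library set the lowest level that could be told from 0. Each fold given as at least a value set the mean of the 3 libraries with counts against that floor, so single libraries can lie below it.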
